A study of Rattus norvegicus with 72 samples.

Results

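A2m, Lbp, Orm1 and Lcn2 are 4 acute phase genes of the rat liver, measured here by 4 probes, 1 for each gene, among 9653 named genes and 20500 probes. They were chosen by gene symbol, with their values in these rats already known, so their levels are given as a description and were not tested. The acute phase is the change in secreted liver proteins that follows tissue injury or infection. Macrophages release interleukin 1 (IL-1) and interleukin 6 (IL-6), and hepatocytes answer through the transcription factors NF-kB, STAT3 and C/EBP by making more of some plasma proteins and less of others. A2m encodes α2-macroglobulin, a protease trap that is a major acute phase protein of the rat. Lbp encodes the binding protein that hands bacterial lipopolysaccharide to Cd14 and Tlr4. Orm1 encodes α1-acid glycoprotein, a lipocalin that carries small molecules in plasma. Lcn2 encodes a lipocalin that takes up the siderophores with which bacteria gather iron, and it is made by hepatocytes under stimulation and by neutrophils.

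The study gave rats acetaminophen, which is toxic to hepatocytes in overdose, in methyl cellulose by oral gavage, and compared RNA of the left liver lobe with RNA of rats given the vehicle. The 36 treated rats formed 12 groups of 3, at 50, 150, 1500 and 2000 mg/kg and at 6, 24 and 48 h. Each rat was a separate animal, hybridised on 2 two-colour Agilent arrays with exchanged dyes. The 3 rats of a group shared 1 control, pooled from vehicle rats of the same dose and time. Titles name a pool for 10 groups, a mock control at 150 mg/kg and 6 h, and, at 150 mg/kg and 24 h, a sham control on the arrays with the rat in Cy5 and a mock control on those with the rat in Cy3. Titles of these 150 mg/kg groups give the unit as mg/kg and the others as mg, taken here as mg/kg. The labels do not give strain, sex or age. Rats were housed in groups of 3.

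The sequences upstream of the start sites show which response elements of the acute phase lie next to these genes. RefSeq promoters of assembly GRCr8 were matched for 2 of the 4 genes, Orm1 and Lcn2, and A2m and Lbp are named only. Capitals mark matches to the C/EBP letters TTNNGNAA, the IL-6 response core CTGGGAA, the NF-kB consensus or the TATA box TATAAA, on either strand. Orm1 (chr5:81788259-81788508, plus strand) is shown for all 250 bases before its start site. Lcn2 (chr3:36081852-36082030, minus strand) is shown for the first 179 of these, since another annotated transcript covers the last 71.
Orm1: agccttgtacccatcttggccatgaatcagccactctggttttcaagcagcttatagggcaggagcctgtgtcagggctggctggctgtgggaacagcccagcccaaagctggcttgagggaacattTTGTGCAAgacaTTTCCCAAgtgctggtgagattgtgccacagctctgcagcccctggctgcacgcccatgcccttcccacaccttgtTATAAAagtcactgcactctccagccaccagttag
Lcn2: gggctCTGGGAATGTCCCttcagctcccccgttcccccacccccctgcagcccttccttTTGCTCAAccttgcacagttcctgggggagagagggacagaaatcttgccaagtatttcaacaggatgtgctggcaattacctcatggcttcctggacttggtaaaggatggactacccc

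The Orm1 window held 2 C/EBP matches, starting at -123 and -111 from the start site, and a TATA box at -35. Over 33469 rat promoters of the same 250-base length, C/EBP letters were present in 37.2% and the TATA box in 12.9%. The Lcn2 window held the IL-6 response core at -245, an NF-kB match at -242 that overlaps it, and 1 C/EBP match at -191. These positions count from the start site of the window, which lies 71 bases inside the annotated gene. The IL-6 core was present in 9.56% of all promoters and the NF-kB consensus in 6.33%. The STAT letters TTCNNNGAA, present in 7.67% of promoters, and the glucocorticoid receptor core TGTTCT, present in 17.5%, were not in either window. These are matches of letters and do not show binding.

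All values below are log2 ratios of the treated rat to its control, averaged over the 2 arrays, so that values above 0 stand for a higher level in the treated rat. The labels do not say which dye is the numerator. Red over green was taken, as is usual for this software, and the opposite would turn each sign. In whole liver, more RNA per cell and more cells of a type cannot be told apart. A difference between the separate pools of 2 groups enters every comparison of doses or times.

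The 4 genes differed in when and how far they left the control level, as the plot of all rats shows. A2m was already several fold higher 6 h after 1500 and 2000 mg/kg, when Lcn2 lay at the control level in every group and Lbp and Orm1 no more than log2 0.78 away from it. At 24 h each of the 4 was above the control in at least 5 of the 6 rats given 1500 or 2000 mg/kg, with a wide spread, and at 48 h in all 6. At 24 h, 6 of these rats lay above every lower-dose rat for A2m, 5 for Lbp and Orm1 and 3 for Lcn2. At 50 and 150 mg/kg all values at 6 and 24 h lay between log2 -0.32 and 0.62. The means of A2m ranked 2nd from the highest of 17299 genes and probes in both high-dose groups at 48 h.

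**Figure D1:**
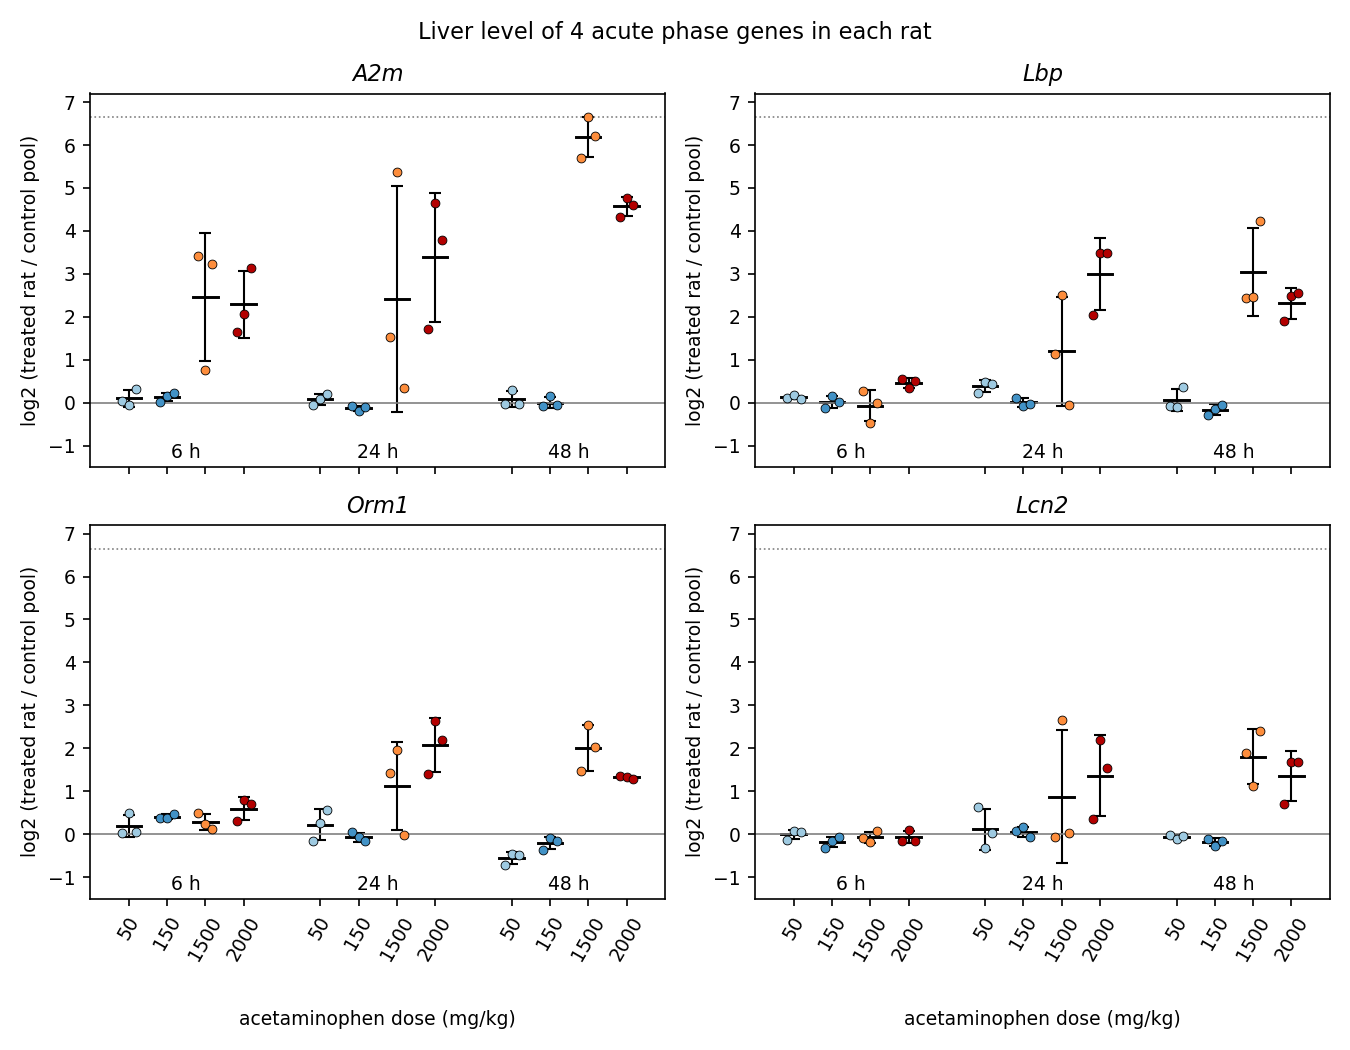
Log2 ratio of each treated rat to its control pool (y axis) for A2m, Lbp, Orm1 and Lcn2 by dose in mg/kg (x axis) at 6, 24 and 48 h. Points are rats (mean of 2 arrays), bars are the group mean and SD (n = 3), and the dotted line is the cap of the deposited values at log2 6.64. At 6 h A2m was the gene of the 4 whose rats at 1500 and 2000 mg/kg all lay above every rat of the lower doses. At 48 h all 4 genes stood above the control in every rat given 1500 or 2000 mg/kg.

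A2m (probe 20138, NM_012488, chr4:156570163-156619870 on GRCr8) had the widest range. At 6 h its log2 ratio was 0.04, -0.05 and 0.32 in the rats given 50 mg/kg and 0.02, 0.16 and 0.21 in those given 150 mg/kg. It was 3.41, 0.75 and 3.23 after 1500 mg/kg and 1.65, 2.06 and 3.15 after 2000 mg/kg. All 6 rats of the higher doses lay above all 6 of the lower doses, and rat 3031 lay nearest to them. The 1500 mg/kg rats averaged 2.46 ± 1.49, or 5.52-fold, and the 2000 mg/kg rats 2.29 ± 0.77, or 4.87-fold (SD, n = 3 each). Among all 17299 genes and probes, 6.58% had all 6 rats of the higher doses above all 6 of the lower doses at 6 h. At 24 h the share was 6.27% and at 48 h 9.73%. The shares with all 6 below, which would apply if the ratios were turned, were 3.85% at 6 h, 4.47% at 24 h and 8.29% at 48 h.

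At 24 h A2m was -0.07, 0.09 and 0.20 after 50 mg/kg and -0.09, -0.20 and -0.11 after 150 mg/kg. After 1500 mg/kg it was 1.53, 5.37 and 0.34, and after 2000 mg/kg it was 1.72, 4.65 and 3.78. The 3 rats at 1500 mg/kg thus ran from close to the control to over log2 5, and their SD of 2.63 exceeded their mean of 2.41. The 2000 mg/kg rats averaged 3.39 ± 1.51 (SD, n = 3), or 10.5-fold. These 2 groups overlapped, and all 6 rats still lay above the 6 rats of the lower doses.

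At 48 h the deposited values of the rats of a group lay close together. A2m was -0.03, 0.29 and -0.03 after 50 mg/kg and -0.09, 0.15 and -0.06 after 150 mg/kg. It was 5.70, 6.64 and 6.22 after 1500 mg/kg and 4.33, 4.78 and 4.60 after 2000 mg/kg. Both arrays of rat 3007 stood at the cap of the deposited values, so its 6.64 is a lower bound, and so is the SD of its group. The mean of 6.19 ± 0.47 at 1500 mg/kg is therefore at least 72.9-fold, and that of 4.57 ± 0.22 at 2000 mg/kg was 23.7-fold (SD, n = 3 each). At this time the 1500 mg/kg rats all lay above the 2000 mg/kg rats. In the order of the 12 group means, 1500 mg/kg at 48 h was separated from the rest. From 2000 mg/kg at 48 h down to 2000 mg/kg at 6 h each group overlapped with the next. The 6 groups of 50 and 150 mg/kg came last, with means between -0.13 and 0.13.

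Lbp (probe 3314, NM_017208, chr3:167373786-167400941) was near the control at 6 h. Its log2 ratio was then 0.10, 0.17 and 0.09 after 50 mg/kg, -0.12, 0.16 and 0.01 after 150 mg/kg and 0.26, -0.47 and -0.0022 after 1500 mg/kg. After 2000 mg/kg it was 0.55, 0.33 and 0.49, above every rat of the other 3 doses. This mean of 0.46 ± 0.11 (SD, n = 3) was 1.37-fold, and the means of the other 3 groups lay between -0.07 and 0.12.

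At 24 h Lbp was 0.23, 0.49 and 0.44 after 50 mg/kg and 0.11, -0.07 and -0.03 after 150 mg/kg. It was 1.13, 2.50 and -0.05 after 1500 mg/kg and 2.03, 3.49 and 3.48 after 2000 mg/kg. Of the 6 rats of the higher doses, 5 lay above all 6 of the lower doses, and the exception was rat 3020. The 1500 mg/kg rats averaged 1.19 ± 1.27 and the 2000 mg/kg rats 3.00 ± 0.84, or 8.01-fold (SD, n = 3 each). At 50 mg/kg the mean was 0.39 ± 0.14, or 1.31-fold, the highest of the 6 groups of 50 and 150 mg/kg.

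At 48 h Lbp was -0.09, -0.10 and 0.36 after 50 mg/kg and -0.28, -0.15 and -0.05 after 150 mg/kg. It was 2.43, 2.47 and 4.24 after 1500 mg/kg and 1.90, 2.49 and 2.55 after 2000 mg/kg. No rat of the higher doses overlapped with the lower doses. The 1500 mg/kg rats averaged 3.05 ± 1.03, or 8.26-fold, and the 2000 mg/kg rats, which overlapped with them, 2.31 ± 0.36, or 4.97-fold (SD, n = 3 each). The order of the group means ran from 1500 mg/kg at 48 h through 2000 mg/kg at 24 h and 2000 mg/kg at 48 h to 1500 mg/kg at 24 h, each overlapping with the next.

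Orm1 (probe 5119, NM_053288, chr5:81788509-81791661, the gene with the C/EBP pair and TATA box above) lay above the control in all 12 rats at 6 h, at every dose. Its log2 ratio was 0.03, 0.49 and 0.04 after 50 mg/kg, 0.38, 0.38 and 0.47 after 150 mg/kg, 0.49, 0.24 and 0.13 after 1500 mg/kg and 0.29, 0.78 and 0.70 after 2000 mg/kg. In rats 3125 and 3127 (50 mg/kg) and 3032 (1500 mg/kg) the 2 arrays had opposite signs. With these rats in Cy3 they read -0.19, -0.09 and -0.05. The doses overlapped, and 2 of the 6 rats of the higher doses lay above all 6 of the lower doses. The largest mean was 0.59 ± 0.26 (SD, n = 3) at 2000 mg/kg, or 1.51-fold. At 150 mg/kg the mean of 0.41 ± 0.05 (SD, n = 3) was the 122nd highest of 17299.

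At 24 h Orm1 was -0.15, 0.25 and 0.57 after 50 mg/kg and 0.04, -0.07 and -0.17 after 150 mg/kg. It was 1.42, 1.96 and -0.01 after 1500 mg/kg and 1.41, 2.63 and 2.19 after 2000 mg/kg. Rat 3020 again lay among the lower doses, and the other 5 lay above all of them. The 1500 mg/kg rats averaged 1.12 ± 1.02 and the 2000 mg/kg rats 2.08 ± 0.62, or 4.22-fold (SD, n = 3 each).

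At 48 h Orm1 was the gene of the 4 that lay farthest below the control at low dose. It was -0.73, -0.47 and -0.49 after 50 mg/kg and -0.37, -0.08 and -0.17 after 150 mg/kg. It was 1.46, 2.53 and 2.02 after 1500 mg/kg and 1.36, 1.33 and 1.30 after 2000 mg/kg. All 6 rats of the higher doses lay above the control and all 6 of the lower doses below it. At the higher doses, the 1500 mg/kg rats averaged 2.01 ± 0.54, or 4.02-fold, and the 2000 mg/kg rats 1.33 ± 0.03, or 2.51-fold (SD, n = 3 each). The means of the lower doses were -0.56 ± 0.14 after 50 mg/kg and -0.21 ± 0.15 after 150 mg/kg (SD, n = 3 each). The level at 50 mg/kg was 1.48-fold lower than its pool, and a high level of Orm1 RNA in that pool cannot be told apart from a low level in the rats. In the order of the group means, 2000 mg/kg at 24 h came first and overlapped with 1500 mg/kg at 48 h, which was separated from 2000 mg/kg at 48 h.

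Lcn2 (probe 18122, NM_130741, chr3:36078432-36081851) lay between -0.31 and 0.09 in all 12 rats at 6 h. Its log2 ratio was -0.13, 0.06 and 0.06 after 50 mg/kg, -0.31, -0.16 and -0.07 after 150 mg/kg, -0.10, -0.18 and 0.07 after 1500 mg/kg and -0.16, 0.09 and -0.16 after 2000 mg/kg. No dose stood apart.

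At 24 h Lcn2 was 0.62, -0.32 and 0.01 after 50 mg/kg and 0.06, 0.17 and -0.06 after 150 mg/kg. It was -0.07, 2.65 and 0.03 after 1500 mg/kg and 0.35, 2.20 and 1.55 after 2000 mg/kg. The level was high in 3 rats, 3019, 3106 and 3107, and the other 3 of the higher doses overlapped with the lower doses. The 1500 mg/kg rats averaged 0.87 ± 1.55 and the 2000 mg/kg rats 1.36 ± 0.94, or 2.57-fold (SD, n = 3 each). In rat 3107 the array with the rat in Cy3 read 3.13 and that with the rat in Cy5 read -0.03, so its 1.55 is a mean of values that disagree. The arrays of rats 3018, 3020 and 3106 also differed by over log2 1, at 0.59 and -0.74 with the rat in Cy5 and in Cy3 for rat 3018, -0.53 and 0.59 for rat 3020, and 1.62 and 2.77 for rat 3106.

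At 48 h Lcn2 was -0.02, -0.11 and -0.05 after 50 mg/kg and -0.11, -0.28 and -0.16 after 150 mg/kg. It was 1.89, 1.12 and 2.41 after 1500 mg/kg and 0.69, 1.69 and 1.69 after 2000 mg/kg. The 6 rats of the higher doses all lay above the control and the 6 of the lower doses below it, though by log2 0.28 at most. Lcn2 averaged 1.81 ± 0.65, or 3.50-fold, in the 1500 mg/kg rats and, overlapping with them, 1.36 ± 0.57, or 2.56-fold, in the 2000 mg/kg rats (SD, n = 3 each). In the order of the group means each of the 4 groups of the higher doses at 24 and 48 h overlapped with the next, so no order among them holds beyond the spread.

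Subtracting the average of the 50 and 150 mg/kg groups from that of the 1500 and 2000 mg/kg groups puts the 4 time courses on 1 scale. For A2m this log2 difference was 2.26 at 6 h, 2.93 at 24 h and 5.34 at 48 h, the last at least 40.5-fold. For Lbp it was 0.12, 1.90 and 2.73 at these times, for Orm1 0.14, 1.52 and 2.05, and for Lcn2 0.02, 1.03 and 1.70. Each gene had its largest difference at 48 h. For Orm1 the mean of the higher doses was 1.60 at 24 h and 1.67 at 48 h, while that of the lower doses went from 0.08 to -0.39. At 1500 mg/kg all 4 means were higher at 48 h than at 24 h. At 2000 mg/kg that of A2m was higher too. Those of Lbp and Orm1 were lower there, at 2.31 against 3.00 and 1.33 against 2.08, and that of Lcn2 was 1.36 at both times. The SD between rats within a group, pooled over the 4 doses, was widest at 24 h for 4 of 4 genes, at 1.52 for A2m, 0.77 for Lbp, 0.63 for Orm1 and 0.94 for Lcn2. Without rat 3019 the difference at 24 h was 0.59 for Lcn2 and 2.19 for A2m.

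Part of the spread at 24 h was shared between genes within a rat. After 2000 mg/kg rat 3105 was the lowest of its group for all 4 genes. Rat 3106 lay above rat 3107 for A2m and Orm1, while for Lbp they were at 3.49 and 3.48, and for Lcn2 the value of rat 3107 rests on arrays that disagree. After 1500 mg/kg rat 3019 was the highest for all 4 genes, and rat 3018 lay above rat 3020 for A2m, Lbp and Orm1. The Lcn2 values of rats 3018 and 3020 were closer to each other than the 2 arrays of either rat. Rat 3018 had A2m at 1.53, Lbp at 1.13 and Orm1 at 1.42, and its Lcn2 was at -0.07. Rat 3020 had no gene of the 4 above 0.34. These rats also differed over the whole array. The SD of log2 ratios over all genes and probes was 0.351 in rat 3020 and 0.396 in rat 3105, the lowest of their groups, against 0.483 and 0.488 in rats 3018 and 3019 and 0.567 and 0.581 in rats 3106 and 3107. At 48 h the order differed more between genes. After 1500 mg/kg rat 3007 was highest for A2m and Orm1 and lowest for Lcn2, and rat 3008 was highest for Lbp and Lcn2. After 2000 mg/kg rat 3117 was lowest for A2m, Lbp and Lcn2, and for Orm1 the 3 rats lay between 1.30 and 1.36.

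**Figure D2:**
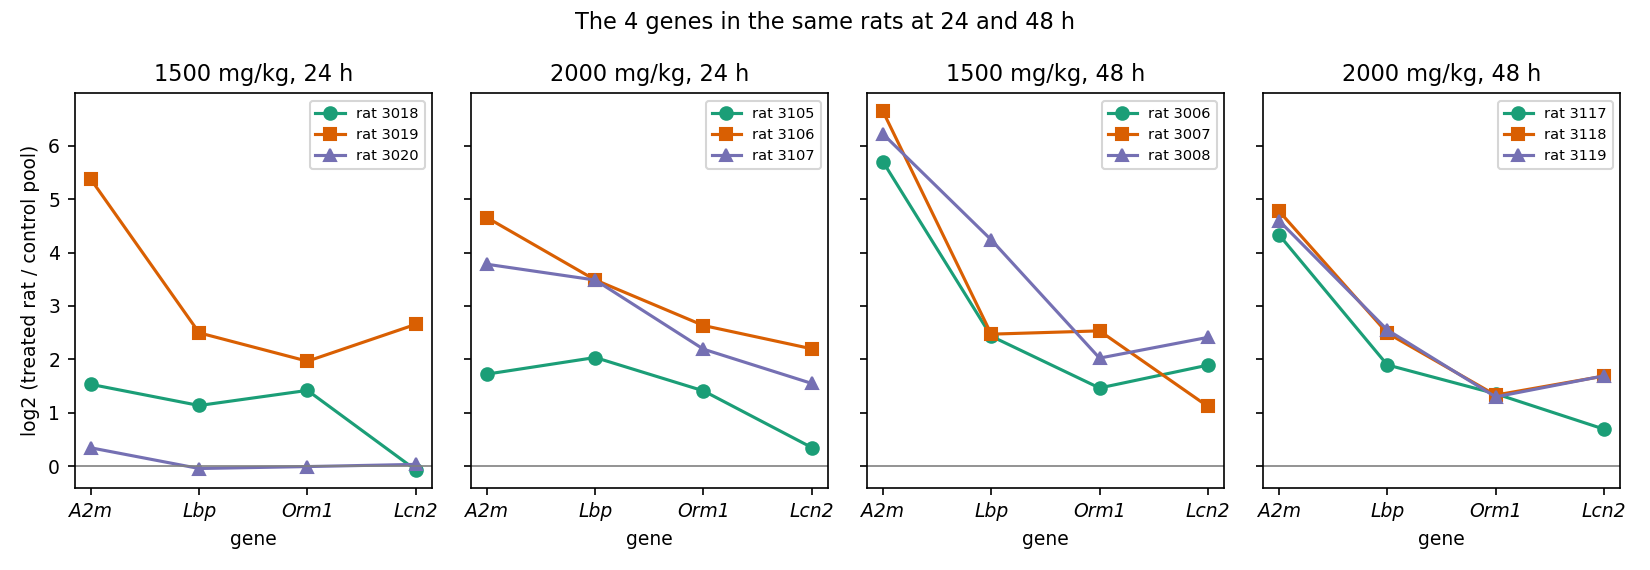
Log2 ratio to the control pool (y axis) of the 4 genes (x axis) in each rat given 1500 or 2000 mg/kg at 24 and 48 h, with 1 line for each rat. At 24 h rat 3019 is the highest of the 1500 mg/kg rats and rat 3105 the lowest of the 2000 mg/kg rats for every gene, and rat 3020 has no gene above 0.34. At 48 h the lines of the 1500 mg/kg rats cross.

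The agreement of the 2 dye orientations differed between the 4 probes. The median absolute difference between the 2 arrays of a rat was 0.17 for A2m, 0.26 for Lbp, 0.38 for Orm1 and 0.53 for Lcn2, against a median of 0.29 over the 20500 probes. Values were higher with the rat in Cy5 for Orm1, by 0.30 on average. They were lower in that orientation for Lbp and Lcn2, with a mean difference of -0.26 for each, and this offset cancels in the mean of the 2 arrays. The arrays differed by over log2 1 in 6 of 36 rats for Lcn2, in 1 for Lbp and in none for A2m and Orm1. For Lcn2 they had opposite signs in 20 of 36 rats, 4 of which were among the 12 of the higher doses at 24 and 48 h.

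**Figure D3:**
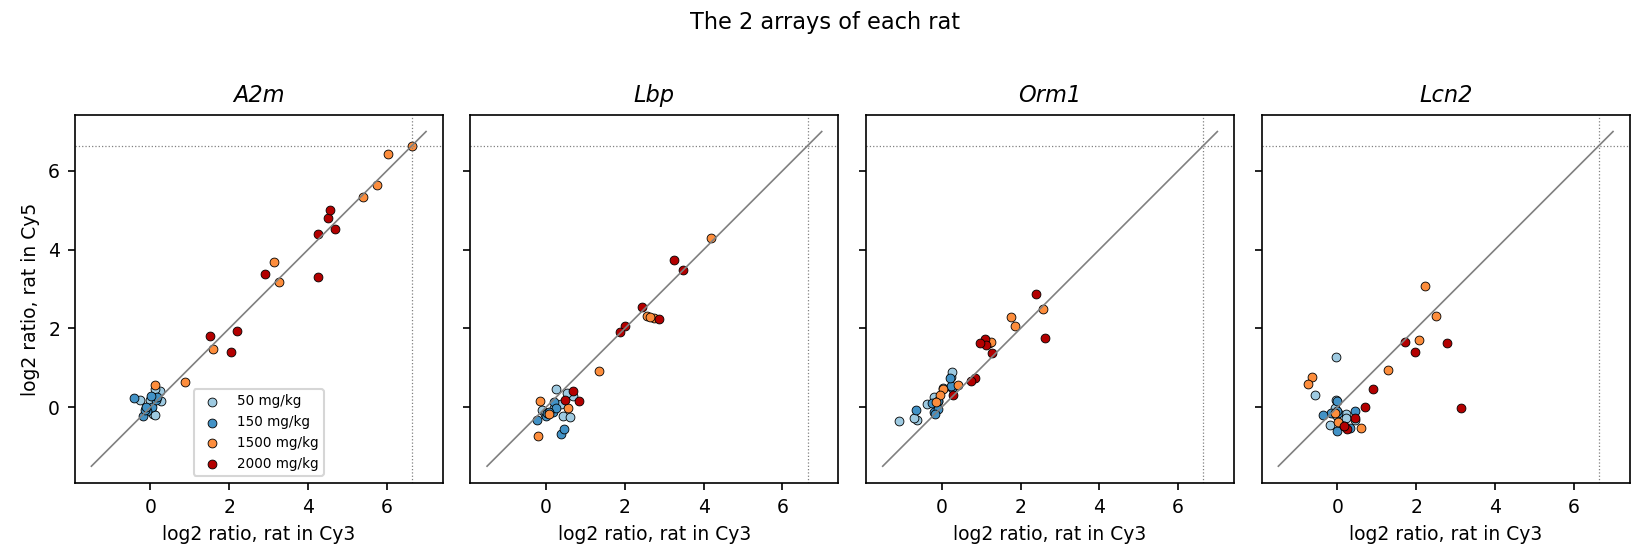
Log2 ratio of each rat on the array with the rat in Cy5 (y axis) against the array with the rat in Cy3 (x axis), for the 4 genes and 36 rats. The line marks equal values and the dotted lines the cap at log2 6.64. Points of A2m follow the line, those of Orm1 lie mostly above it, and Lcn2 has 1 point far from it, rat 3107 at 3.13 and -0.03.

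The 4 genes were compared with all 8752 named genes with values in all 36 rats, as a description over rats that share pools, doses and times. The genes most like A2m were Ica1, an islet cell autoantigen, at Pearson's r of 0.908, Actr1a, a subunit of dynactin, at 0.907, Gmnn, the replication inhibitor geminin, at 0.905, and Dhrs7b at 0.899. Those most like Lbp were Upp1, a uridine phosphorylase, at 0.929, Derl3, a protein of degradation at the endoplasmic reticulum, at 0.928, Psmb7, a proteasome subunit, at 0.923, and Sdcbp, or syntenin, at 0.919. Orm1 was most like Derl3 and Psmb7, both at 0.914, then Atp6v1f, a subunit of the vacuolar proton pump, at 0.904, and Lbp at 0.902. Lcn2 was most like Lbp, at 0.904, and then P4hb, a protein disulfide isomerase, at 0.856, Marchf3, a ubiquitin ligase, at 0.849, and Pop7, a subunit of ribonuclease P, at 0.845.

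Among the 4 genes themselves Pearson's r ran from 0.786 for Orm1 and Lcn2 to 0.904 for Lbp and Lcn2. By ranks (Spearman) Lcn2 was less like the others, at 0.665 with Lbp, 0.567 with Orm1 and 0.543 with A2m. The closest pair by ranks was Lbp and Orm1, at 0.826. A2m was at 0.811 with Orm1 and 0.722 with Lbp. Within the 18 rats given 1500 or 2000 mg/kg, Lbp kept r of 0.896 with Orm1 and 0.885 with Lcn2, and A2m had 0.756 with Lbp, 0.725 with Orm1 and 0.799 with Lcn2. The genes most like A2m changed less than it did. Gmnn, for example, was at 2.10 ± 0.43 after 1500 mg/kg and 1.79 ± 0.53 after 2000 mg/kg at 48 h, and Actr1a at 0.78 ± 0.21 and 0.62 ± 0.23 (SD, n = 3 each). Derl3 was at 1.24 ± 0.37 after 2000 mg/kg at 24 h (SD, n = 3), when Lbp was at 3.00.

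Genes around the 4 were tested in 1 limma fit over all 36 rats, as the same difference between higher and lower doses at each time. A call needed a change of at least 1.5-fold together with an adjusted p (Benjamini-Hochberg) under 0.05. Of 17299 genes and probes, 8.13% were called at 6 h (4.67% higher, 3.46% lower), 9.93% at 24 h (6.56% higher, 3.37% lower) and 12.4% at 48 h (8.26% higher, 4.09% lower). Adjusted p-values below are from this fit. Of the deposited array values 2.68% are exactly 0, where no other value occurs more than 90 times, so a 0 may stand for a ratio that was not measured. The probes of A2m, Lbp, Orm1 and Lcn2 hold none.

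Of the cytokines, receptors and transcription factors that drive the acute phase, 21 of 28 listed genes were measured. At 6 h, 3 rose and 2 fell. Il6r, which encodes the IL-6 receptor, rose by log2 2.12 ± 0.13 (SE, limma adjusted p = 3.91e-12), with all 6 rats of the higher doses between 1.98 and 2.47 and the 6 of the lower doses between -0.12 and 0.39. Nfkbia, the NF-kB inhibitor that NF-kB itself induces, and Nfkbiz, a nuclear relative of it, rose by 0.95 and 0.82. The probes of Nfkbiz disagreed, with 1 at 1.45 and called and the other at 0.19 and not called. Jak1, a kinase of the IL-6 receptor complex, fell by 0.98, with means of -0.61 at the higher and 0.37 at the lower doses. Il1rap, the accessory chain of the IL-1 receptor, fell by 0.64. The last call ended without rat 3032 or 3081, with scaled arrays, and at adjusted p = 0.0995 when the rats of a group were fitted as a random block.

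At 24 h, 5 of the 21 rose and none fell. These were Il1b, encoding interleukin 1β, at log2 1.47 ± 0.27 (SE, limma adjusted p = 0.000101), Cebpd, a C/EBP factor of the acute phase, at 1.39 ± 0.24 (adjusted p = 4.91e-05), Nfkbia at 1.28, the tumour necrosis factor receptor Tnfrsf1a at 1.13, and Il1r2, a decoy receptor of IL-1, at 0.94. The call of Il1r2 ended without rat 3019 or 3106, with scaled arrays, with the 24 h rats fitted alone, with 50 mg/kg alone as the low level and, at adjusted p = 0.136, with the random block. At 48 h Cebpd rose by 0.96 and Il1a, encoding interleukin 1α, by 0.59, and Il6r fell by 0.68. The call of Cebpd at 48 h was lost at adjusted p = 0.0506 with the random block, and that of Il1a with the random block (adjusted p = 0.0775), with scaled arrays and in 6 of 12 fits without 1 rat. The call of Il6r at 48 h ended without rat 3059 or 3119, at log2 -0.09 with 50 mg/kg alone as the low level, and at adjusted p = 0.106 with the random block. Il6, Tnf, Stat3 and Socs3, the feedback inhibitor of IL-6 signalling, were not called at any time, with differences between -0.26 and 0.24. For Stat3 these are means of probes that disagreed. At 6 h they were at 0.72, which was called, and -0.30, and at 24 h at 0.59, which was called, and -0.10. Single probes of Nfkb1, at 0.60, and Nfkbiz, at 0.90, were also called at 24 h. The other probes of these genes were at -0.14 and -0.23 and not called.

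The rats of Cebpd at 24 h can be set beside the 4 genes. Cebpd was at 1.18, 1.76 and -0.06 in rats 3018, 3019 and 3020 after 1500 mg/kg and at 1.14, 2.85 and 2.0 in rats 3105, 3106 and 3107 after 2000 mg/kg. Rats 3019 and 3106 were thus highest and rats 3020 and 3105 lowest, as they were for A2m, Lbp and Orm1. Il6r differed, at 1.26, 1.49 and 1.24 in the 1500 mg/kg rats and -0.03, -0.34 and 0.45 in the 2000 mg/kg rats. Its lower-dose rats were at 0.85, 1.04 and 1.14 after 50 mg/kg and at 0.13, 0.37 and 0.70 after 150 mg/kg. The means over 6 rats were 0.68 at the higher and 0.70 at the lower doses, against 2.27 and 0.15 at 6 h.

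Of 24 other positive acute phase genes, 17 could be tested. At 6 h none was called by limma, 7 had an unadjusted p below 0.05, and the median difference was log2 -0.02, against -0.0043 over all 17299. At 24 h, 4 rose and 1 fell, with a median of 0.03, and at 48 h, 4 rose and 3 fell, with a median of 0.13. The medians over all 17299 were -0.02 and -0.03 at these times. The difference farthest above 0 among the 17 was 1.28, for Fgb at 24 h, when A2m was at 2.93, Lbp at 1.90, Orm1 at 1.52 and Lcn2 at 1.03.

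The genes that rose at 24 h included the 3 chains of fibrinogen, the clotting protein. Fgb rose by log2 1.28 ± 0.17 (SE, limma adjusted p = 1.13e-06), Fgg by 0.97 ± 0.21 and Fga by 0.69 ± 0.23. Fgb was at 1.23, 1.09 and -0.19 after 1500 mg/kg and at 1.92, 2.50 and 2.19 after 2000 mg/kg, so rat 3020 was again the lowest of the 6. Fgb has 2 probes, and one of them had values in 17 of 36 rats and in none of these 6, so the averaged values of Fgb rest on different probes in different groups. On the complete probe Fgb was at 1.13 at 24 h (limma adjusted p = 1.06e-05). Serpina3n, a secreted protease inhibitor, rose by 0.73 ± 0.20. The call of Fga ended without rat 3018, 3019 or 3074 and that of Serpina3n without rat 3019, which left 2 of the 4. With 50 mg/kg alone as the low level, Fgb was the only one of the 4 called, Fgg was at 0.39 and Fga at -0.05. The random block also left 1, with adjusted p = 0.0724 for Fgg.

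At 48 h C4bpa, a chain of the C4b-binding protein of the complement system, rose by log2 1.09 ± 0.12 (SE, limma adjusted p = 2.83e-08), the haem-binding Hpx by 0.96 ± 0.17, complement component C9 by 0.86 ± 0.16 and Fgg by 0.80 ± 0.21. Fgb, at 0.43 and not called when its probes were averaged, rose by 0.93 on its complete probe (limma adjusted p = 0.000114). The call of Fgg was lost at adjusted p = 0.123 with the random block and at log2 0.30 with scaled arrays. With values required from all 36 rats, 2 of the 4 remained tested and called, since Hpx and C9 lacked 1 rat each. Fgg and Fga also stood above the pool at the lower doses at 48 h, with means over 6 rats of 1.55 and 1.36 at the higher doses and 0.75 and 0.78 at the lower doses. In those 6 rats of the lower doses Orm1 and Lcn2 stood below the pool.

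Crp, which encodes C-reactive protein, a major acute phase protein in humans, went the other way. It fell by 1.16 at 24 h and by 1.21 at 48 h (SE 0.16 each, limma adjusted p = 2.22e-06 and 8.99e-07). At 48 h its 6 rats of the higher doses lay between -1.99 and -0.32 and those of the lower doses between 0.03 and 0.36. Its relative Apcs, serum amyloid P, fell by 0.88 at 48 h, and Itih3, a heavy chain that links to hyaluronan, fell by 0.65. The call of Itih3 ended with scaled arrays, at log2 -0.54.

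Of 11 negative acute phase genes, whose plasma proteins drop in inflammation, 10 were on the array and 6 could be tested. Ahsg, Rbp4, Tf and Ttr lacked values on many arrays and were left out, as was Serpina1 of the positive list. Igf1, an insulin-like growth factor made by the liver, fell at all 3 times, by 0.64, 0.76 and 1.03. Serpina6, the plasma carrier of corticosteroids, fell by 1.69 ± 0.12 at 24 h (SE, limma adjusted p = 2.64e-11) and by 1.25 at 48 h, and F12, a coagulation factor, by 1.00 at 48 h. Apoa1, the main protein of high-density lipoprotein, rose by 1.31 ± 0.16 at 48 h (SE, limma adjusted p = 2.4e-07). Of the 6, Gc and Apom were not called at any time. The call of Igf1 at 24 h ended with scaled arrays, at log2 -0.39.

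Whether these differences changed with time was tested in the same fit for the 56 tested genes of the 4 lists of acute phase, signalling and partner genes. Between 6 and 24 h the difference changed for 11 of 56, where 13.1% of all 17299 did, and between 24 and 48 h for 14 of 56, where 6.46% did. Many of these calls depended on the setting. Between 6 and 24 h, 7 of the 11 were kept with scaled arrays, 7 with 50 mg/kg alone as the low level, and 6 under each of these settings. Between 24 and 48 h, 8 of the 14 were kept with scaled arrays, 7 with 50 mg/kg alone, and 4 under each. Il6r changed by log2 -2.14 and Serpina6 by -1.65 between 6 and 24 h, and Nfkbia by -1.75 and C4bpa by 1.05 between 24 and 48 h.

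**Figure D4:**
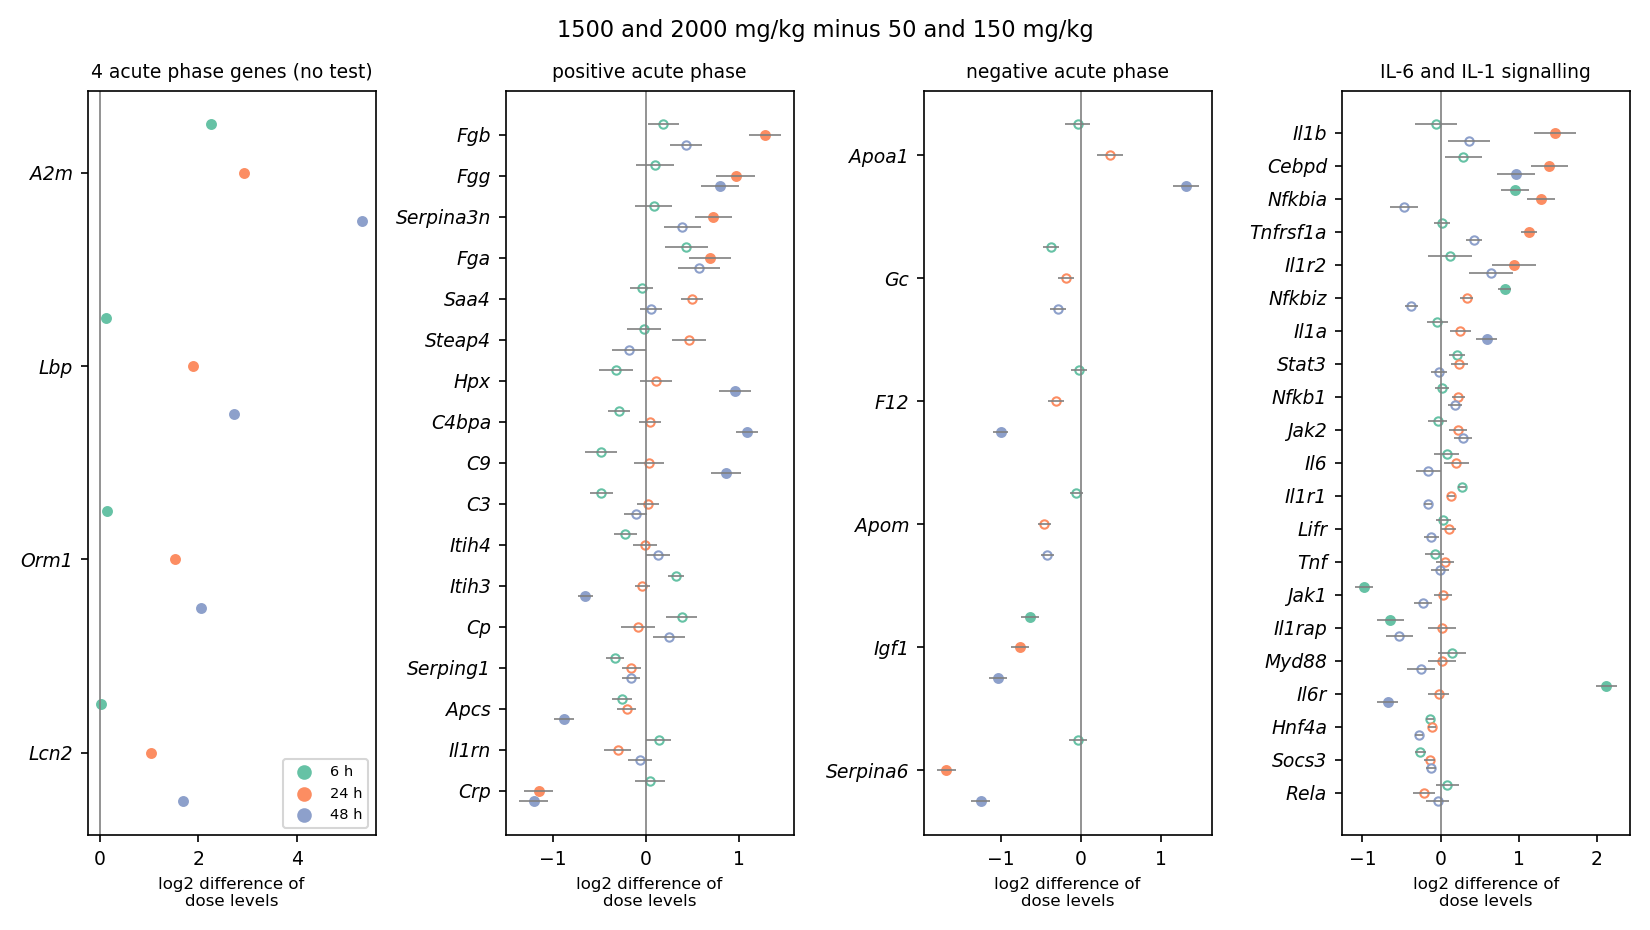
Log2 difference of the higher doses (1500 and 2000 mg/kg) minus the lower doses (50 and 150 mg/kg) (x axis) at 6, 24 and 48 h for the 4 genes, which were not tested, and for 3 gene lists (y axis). Bars are SE of the limma fit, and in the lists filled points passed the test and open points did not. The x axes have different ranges. Fgb and Serpina6 stand out at 24 h and Il6r at 6 h, while A2m reaches 5.34 at 48 h.

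Relatives and partners of the 4 proteins were measured for 12 of 20 listed genes, with 0 called by limma at 6 h, where 3 had an unadjusted p below 0.05. Mug1, a murinoglobulin and close relative of α2-macroglobulin, fell by log2 1.02 at 24 h and 1.53 at 48 h (limma adjusted p = 1.58e-05 and 2.2e-08), at the times when A2m was highest. The call at 24 h ended with scaled arrays, at -0.38. Ambp, a lipocalin like Orm1 and Lcn2, fell by 1.07 at 48 h, with means of -0.43 at the higher and 0.64 at the lower doses. Asgr2 fell by 0.88 at 24 h and 1.17 at 48 h, and Asgr1 by 1.01 at 48 h, the chains of the hepatocyte receptor that takes up glycoproteins such as α1-acid glycoprotein once they have lost sialic acid. Asgr1 was at -0.46 at the higher and 0.56 at the lower doses at 48 h. Part of the differences of Ambp and Asgr1 thus lies in lower-dose rats above their pools. Tlr2, a receptor of bacterial lipoproteins, rose by 0.80 at 24 h, a call that ended in 10 of 12 fits without 1 rat and at adjusted p = 0.315 with the random block, and by 1.51 at 48 h (limma adjusted p = 0.000293). Cd14, to which Lbp passes lipopolysaccharide, was not called, at -0.06, 0.08 and -0.31 at 6, 24 and 48 h, and Lrp1, the receptor that clears α2-macroglobulin with bound protease, was at -0.06, -0.18 and -0.40.

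Markers of other liver and blood cells were measured beside these genes, since neutrophils also make Lcn2. Of 14 neutrophil markers 6 were measured, and 0, 1 and 3 rose at 6, 24 and 48 h, with list medians of 0.04, 0.06 and 0.45. S100a9 rose by log2 1.95 at 24 h and 2.02 at 48 h, and its probe holds no value of exactly 0. S100a8 was called at 0.78 and Itgam at 0.66 at 48 h, but 42 of 71 array values of S100a8 and 49 of 72 of Itgam are exactly 0, and with those left out neither could be tested. All 6 rats of the lower doses at 48 h stood at exactly 0 for Itgam. Its call also ended in 9 of 12 fits without 1 rat and, at adjusted p = 0.23, with the random block, and that of S100a8 without rat 3007 or 3119 and, at adjusted p = 0.171, with the random block. Both calls ended with scaled arrays, with the 48 h rats fitted alone and with 50 mg/kg alone as the low level. The other 3, Cxcr2, Mmp8 and Cebpe, were not called, with differences between -0.33 and 0.49. S100a9 at 24 h was at 1.84, 1.87 and -0.16 in rats 3018, 3019 and 3020 and at 1.31, 4.72 and 3.37 in rats 3105, 3106 and 3107. Rat 3018 had S100a9 near that of rat 3019, with Lcn2 at -0.07, a mean of 2 arrays of opposite sign, against 2.65.

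Of 15 macrophage markers 13 were measured, and 0, 2 and 5 rose and 0, 1 and 0 fell at 6, 24 and 48 h, with list medians of -0.10, -0.05 and 0.32. Gpnmb, a glycoprotein of activated macrophages, rose by 1.39 at 24 h and 3.60 at 48 h, and the lysozyme gene Lyz2 by 0.89 and 1.56, its call at 24 h ending without rat 3018, 3074, 3106 or 3107, with the 24 h rats fitted alone, with 50 mg/kg alone as the low level and, at adjusted p = 0.234, with the random block. At 48 h Ptprc, the leukocyte antigen CD45, rose by 1.20 and Cd5l, a secreted protein of macrophages, by 0.59. The scavenger receptor Marco was called at 1.16, a mean of probes at 1.74 and 0.57, of which the lower misses the fold minimum. Clec4f, a lectin of resident liver macrophages, went the other way and fell by 0.61 at 24 h (limma adjusted p = 0.00309), and at 48 h it was at -0.57 and not called. The call of Clec4f ended without rat 3019, 3070, 3106 or 3107, with scaled arrays and, at adjusted p = 0.0742, with the random block. That of Cd5l ended in 6 of 12 fits without 1 rat, with scaled arrays, with 50 mg/kg alone as the low level and, at adjusted p = 0.149, with the random block. For 7 measured stellate cell markers the list medians were 0.02, -0.19 and 0.13 at 6, 24 and 48 h. Of these Des alone was called, at 1.59 at 48 h, with 23 of its 72 array values exactly 0 and no test without them. Not called were Col3a1, at -0.29 at 24 h and -0.33 at 48 h, and Dcn, at 0.50 and 0.54. At 48 h 4 of the 7 lay above 0. Of 4 biliary markers 0 passed the limma test at any time, while unadjusted p-values were below 0.05 for 1 at 6 h, 1 at 24 h and 0 at 48 h. Of 9 hepatocyte markers 4 could be tested, with list medians of 0.06, 0.11 and 0.04 at 6, 24 and 48 h. Apob fell by 0.78 at 6 h, a mean of probes at -1.0 and -0.56 of which the first was called, and Fgb and Apoa1, given above, rose. Cps1 went the other way, at -0.50 at 24 h and -0.55 at 48 h (limma adjusted p = 0.0064 and 0.00239), short of the fold minimum. The ratios hold no absolute levels, so summed marker levels cannot be given, and the part of other cell types in the values of the 4 genes was not tested.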

How the data were processed

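RNA of the left liver lobe of 36 treated rats was hybridised against vehicle control pools on 72 Agilent arrays, 2 for each rat with exchanged dyes, per the labels' protocols. The deposited values are log10 ratios for each array that Agilent's Feature Extraction software produced, per the labels, which state neither its version nor its normalization. Deposited values stop at a log10 of 2 in either direction, and 23 stood there. Between 14 and 1609 values of an array are exactly 0, for a reason not given in the sources used here, and they were kept. Column medians between -0.0191 and 0.019 show that the arrays had been centred, by an unknown method. Intensities, slides and scan dates were not analysed here, and the number of arrays limits the precision.

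Rats were grouped by the dose and time in the array titles. Ratios were multiplied to log2, turned by dye and averaged over both arrays of a rat, both being required. Symbols come from the platform annotation, which gives 12750 probes 1 symbol, 5 several and 7745 none, and 12720 Entrez identifiers were found in the GRCr8 gene table. Probes of a symbol were averaged, and a gene needed at least 2 rats in every group, which kept 17299 of 17403. Group means were fitted with limma 3.58.1 in R 4.3.3, and adjusted p-values in the text are two-sided values of its moderated test. The fit was tested on simulated data. Tables were made with Python 3.11.15 and pandas 2.3.3.

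The 4 genes and the gene lists were chosen with earlier results of these data known, from textbook roles. Text names list genes that were called, up to 8 in a list and time, and the 4 genes most correlated with each of the 4. A few list genes that were not called are named for their role. Array scaling, array centring, dye orientation, capped values, the low dose level, the filter, the fold minimum, single probes, a random block and leaving out each rat were tried as alternatives. The p-values leave out the spread between control rats.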

Additional observations from a re-analysis of the deposited data

Results flagged for a closer look

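For Orm1 and Lcn2 at 48 h every rat given 1500 or 2000 mg/kg lay above its pool and every rat given 50 or 150 mg/kg below its pool, with log2 differences between the dose levels of 2.05 for Orm1 and 1.70 for Lcn2, and this difference was not tested. The lower-dose values of Lcn2 lay between -0.28 and -0.02. Of all 17299 genes and probes at 48 h, 9.73% had every higher-dose rat above every lower-dose rat, and 8.29% below. The share that also had opposite signs was not computed. The other values here are changes in the log2 difference between the dose levels from one time to the next, each tested as a difference of differences with limma (adjusted p between 6.94e-09 and 0.0472).

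Among positive acute phase genes the difference was larger at 24 h than at 6 h for Fgb (1.09) and Fgg (0.87) and lower for Crp (-1.20). At 48 h it was higher than at 24 h for C4bpa (1.05), Hpx (0.85) and C9 (0.83), and lower for Fgb (-0.85, but -0.20 and not called on its complete probe), Apcs (-0.67) and Itih3 (-0.61). Among negative acute phase genes Serpina6 changed by -1.65 between 6 and 24 h, and Apoa1 by 0.95 and F12 by -0.69 between 24 and 48 h.

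Among signalling genes the changes between 6 and 24 h were -2.14 for Il6r, 1.53 for Il1b, 1.10 for Tnfrsf1a, 1.10 for Cebpd, 1.01 for Jak1 and 0.66 for Il1rap. Between 24 and 48 h they were -1.75 for Nfkbia, -0.71 for Nfkbiz, -0.69 for Tnfrsf1a and -0.65 for Il6r. Among partners Asgr2 changed by -0.60 between 6 and 24 h, and Ambp by -0.74 and Asgr1 by -0.73 between 24 and 48 h. Among cell type markers S100a9 changed by 1.91, Gpnmb by 1.52, Lyz2 by 1.44, Ptprc by 0.82, Apob by 0.65 and Clec4f by -0.61 between 6 and 24 h. Between 24 and 48 h Gpnmb changed by 2.22, Des, with many values of exactly 0, by 1.95, Marco by 0.79 and Cd5l by 0.69.

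Several of these changes were no longer called under another setting. With 50 mg/kg alone as the low level this held between 6 and 24 h for Fgg (0.22, adjusted p = 0.693), Il1b (1.13, adjusted p = 0.074), Cebpd, Asgr2, S100a9 (adjusted p = 0.137), Gpnmb, Lyz2 and Ptprc, and between 24 and 48 h for Ambp, Apcs, Apoa1, Asgr1, Fgb, Il6r and Itih3. With scaled arrays it held between 6 and 24 h for Fgg (0.55, adjusted p = 0.116), Cebpd (0.59, adjusted p = 0.11), Il1rap, Asgr2 and Clec4f, and between 24 and 48 h for F12, Fgb, Il6r, Itih3, Nfkbiz, Tnfrsf1a, Des, Marco and Cd5l. Neither probe of Marco was called on its own between 24 and 48 h, and the probes of Nfkbiz were at -1.34, which was called, and -0.079, which was not. Of the probes of Apob, 1 at 0.94 was called between 6 and 24 h and the other, at 0.37, was not. These changes were not refitted without single rats or with the random block.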

How the results depend on the processing

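The differences between dose levels of the 4 genes kept their size within the SD between rats in 212 of 216 other settings, 144 of them without 1 rat. With 3 rats in a group, leaving out 1 cannot move such a difference beyond that SD, so these 144 were bound to stay. Lcn2 at 24 h, for example, went from 1.03 to 0.59 without rat 3019 and still counted as kept. Of the remaining settings 68 stayed. With arrays scaled to equal spread 4 moved more, to log2 3.97 for A2m, 2.05 for Lbp and 1.66 for Orm1 at 48 h, and to -0.079 for Orm1 at 6 h, where the value as reported was 0.14. Without 1 rat the 6 h differences of Lbp ran from 0.04 to 0.22 and of Lcn2 from -0.02 to 0.05. Of their group means 346 of 384 stayed within the SD between rats, all 144 without 1 rat among them, for which this limit is also wide. In the other settings 202 group means stayed and 38 moved. Each of the 4 genes has 1 probe, so single probes gave no other value. Without a fold minimum 5675 genes were called at 6 h (2821 higher, 2854 lower), 5513 at 24 h (2999 higher, 2514 lower) and 6771 at 48 h (3322 higher, 3449 lower), against 1406, 1717 and 2137. Scaled arrays gave 956 at 24 h and 1182 at 48 h, and the random block 932 at 6 h. With 50 mg/kg alone as the low level, 710 were higher and 770 lower at 6 h, and 952 and 795 at 24 h, against 808 and 598, and 1134 and 583. Of the positive acute phase genes, 1 was called higher at 6 h without a fold minimum, 2 at 24 h with scaled arrays, 1 at 24 h with 50 mg/kg alone or the random block, and 2 at 48 h with all 36 rats required, which left C9 and Hpx untested. Without 1 rat this count ran from 2 (without rat 3019) to 5 at 24 h. With 50 mg/kg alone as the low level, Fga at 24 h turned to -0.054 and the change of Il6r between 24 and 48 h to 0.24. With scaled arrays the change of Cd5l between 24 and 48 h turned to -0.040. Leaving out array values of exactly 0, an alternative chosen after seeing the data, left 15885 genes and probes tested and 1329, 1692 and 2021 called at 6, 24 and 48 h, and Des, Il6, Itgam, Mmp8 and S100a8 could not be tested. The causes were not tested. No paired analysis was possible because the groups share no rat numbers. Ratios carry no signal strength, so a low signal over background could not be seen.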
